A study of Equus caballus with 25 samples.

Results

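The comparison asks what changes in the lining of the equine uterus between ovulation and the early luteal phase, when the newly formed corpus luteum begins to secrete progesterone. It compares 10 of 25 single-colour Agilent arrays: 5 arrays of day 3 set against 5 of day 0, chosen by the titles of the arrays and paired by mare. The spread behind the tests was estimated from all 25 arrays. The 5 mares were normally cycling, untreated Bavarian Warmbloods that each gave a transcervical biopsy of the endometrium at days 0, 3, 8, 12 and 16 of the cycle, with day 0 the day of ovulation as followed by palpation and ultrasound every day. The labels call day 0 the ovulatory phase, or estrus, and day 3 the early luteal phase, or early diestrus. The mares' ages are not given. Because biopsies within a cycle were at least 9 days apart, the day 0 and day 3 biopsies of a mare came from different cycles, and the pairing is by animal and not by cycle. A biopsy mixes glands, surface epithelium, stroma, vessels and white blood cells, so that fewer cells of a type and less RNA per cell cannot be told apart in any value below.

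Around ovulation the endometrium is under oestrogen. It is swollen and open to bacteria and semen, and white blood cells enter it readily. After ovulation the corpus luteum takes over and progesterone rises, the cervix closes, and the glands turn to the secretion of proteins that feed an early embryo, among them the lipocalin uterocalin, which carries lipids and retinol. Progesterone acts through its receptor in stroma and epithelium, and oestrogen through ESR1. Local signals such as activins, prostaglandins, retinoids and growth factors carry part of the response between cell layers.

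Values are given as log2 levels relative to the 75th percentile of the same array: a level of 0 is as bright as the probe at that percentile, and 1 unit is a 2-fold difference. Levels of different probes cannot be set against each other. Changes are day 3 minus day 0 with their standard error from limma, fitted over all 25 arrays with the mare as a block, and adjusted p-values are Benjamini-Hochberg values over all 35770 tested probes. A change was called at an adjusted p under 0.05. Where a call was lost in a refit without a mare, the mares for which each refit lost it are named with the highest adjusted p among the 5 refits. This covers the 52 called genes chosen by rule for description. For CCL3, COL5A2 and the genes under other observations no such refit is given, so a missing note there does not mean a kept call. Where 5 values follow each other they belong to mares 1, 2, 3, 4 and 5 in that order.

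Between day 0 and day 3, 6086 of 35770 tested probes changed (17.0%), of which 3125 were higher (8.74%) and 2961 lower (8.28%) at day 3. The change reached 2-fold for 1243 of the probes that rose and 1230 of those that fell, and fitted changes of called probes ran from −5.03 to 3.54 on the log2 scale. Only 189 of the called probes (3.11%) carry a gene symbol in the annotation used here, so that the genes named below are a small part of the change. Among 514 named genes, 94 changed (18.3%), with 32 higher (6.23%) and 62 lower (12.1%); the split was 41 higher and 46 lower after quantile normalization and 30 higher and 137 lower after normexp background correction. The median change was −0.11 over all tested probes and −0.20 over the named genes. The counts in the gene lists below stand against these shares. Of the named genes, 44 had days that did not overlap (8.56%, against 7.8% of all probes), and 36 of these were also called. Of 35 called genes with further tested probes, 26 had another probe called in the same direction and 0 had one called in the opposite direction.

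The 5 mares did not change equally. Of the called probes, 75.6% had the same direction in all 5 mares, against 22.8% of all tested probes and 23.3% of all named genes. Where a gene below did not pass but moved alike in 5 of 5 mares, this stands against that last share. The test favours probes with 1 direction in all mares. A comparison that does not use the mare's own arrays was therefore made: probes called in 4 mares were measured in the mare left out. They had that direction in 92.1% of cases in mare 1, 92.2% in mare 2, 93.7% in mare 3 and 95.0% in mare 5, but in 59.9% of cases in mare 4. The median change in that direction was 1.23 in mare 1, 0.96 in mare 2, 0.76 in mare 3 and 1.03 in mare 5, and 0.16 in mare 4. Of 52 named genes chosen for description that changed, 41 had the fitted direction in mare 4, with a median change in that direction of 0.72 in mare 4 and 1.91 in mare 1; many of them were chosen for 1 direction in all mares, so this is a description only. Without mare 4 the number of called probes was 8039, and of called named genes 138.

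**Figure D1:**
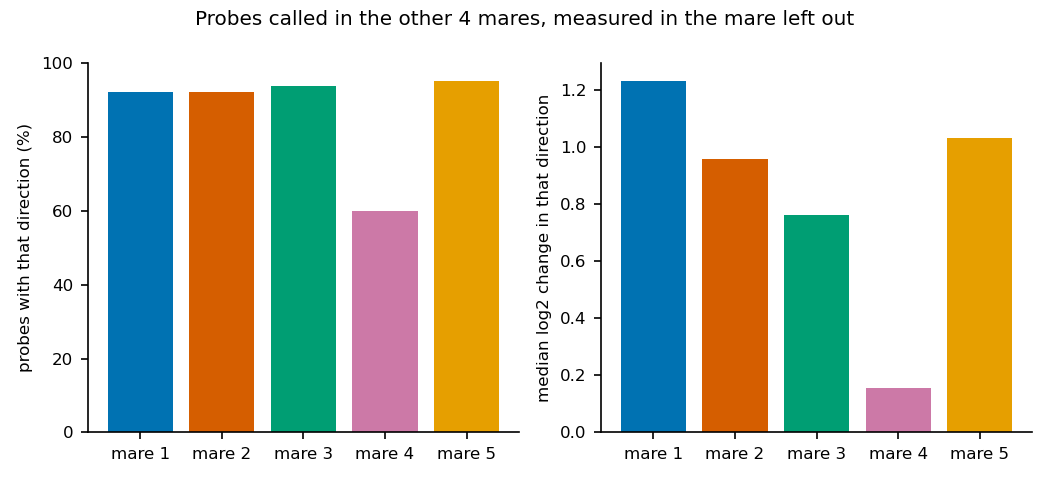
For each mare, the left panel shows the percentage of the probes called in the other 4 mares that had the same direction in that mare, and the right panel their median log2 change in that direction. Mare 4 stands lowest in both panels, at 59.9% and 0.16, while the others lie between 92.1% and 95.0% and between 0.76 and 1.23.

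The arrays differed in brightness and in slide. The 75th percentile of the signal was 698 to 1556 at day 0 and 1601 to 2492 at day 3, and was higher at day 3 in 5 of 5 mares, by a mean of 0.81 on the log2 scale (two-sided exact sign-flip test over 5 pairs, p = 0.0625, the smallest that 5 pairs can give). With this level as a covariate 2495 probes and 55 named genes were called, and 23 of the 52 genes described below lost their call, P19, PTGES, TFRC, CHGA, LILRA, LUM, MMP9, MYH7, FRZB, CDH13 and SOD1 among them. Normexp was run on the median spot signals and local backgrounds in place of the processed signal. It adds an offset to each signal that weighs most on dim probes. Under normexp the fold of 13 of the 52 moved by over 1.5 times and 7 calls ended. These values stand beside the genes. It also moved the calls toward falls, with 2606 probes higher and 7971 lower and a median of all probes of −0.29. A fall that kept its call after normexp and a rise that lost it can thus not be weighed alike. Between 70.3% and 84.3% of spots were well above background, 0 spots were saturated, and each array correlated with the others of its day at a mean r of 0.959 to 0.972. Only mares 4 and 5 had both days on the same slide, and slide 6 held day 3 of mare 3 and day 0 of mare 1. The called probes had the pooled direction in 82.5% of cases within slide 4 (mare 4), 98.8% within slide 5 (mare 5) and 96.5% within slide 6, but these arrays also entered the calls. With the slide as a further block 732 probes were called, and of the 52 named genes 6 kept their call: FST (adjusted p = 0.0142), LGB1 (0.0281), MMP3 (0.0082), CLEC3A (0.0235), CXCL10 (0.0252) and SPARC (0.0357). The other 46 kept their sign, with an adjusted p of 0.0566 to 0.59.

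Genes of secretion and hormone response came in both directions. Of 9 tested members of the list of uterine secretory proteins, 2 rose and 1 fell, and their median change was −0.49. The rises were those of the lipocalins LGB1, beta-lactoglobulin, and P19, uterocalin. LGB1 was at −9.23, −7.80, −8.42, −8.78 and −8.57 at day 0 and at −4.79, −6.47, −6.33, −7.14 and −3.76 at day 3. It was well above background on 0 arrays of day 0 and on 4 of 5 of day 3, and each value of day 3 lay above each of day 0, with mares 5 and 1 highest. LGB1 was at least 1.98-fold higher at day 3, or at least 1.41-fold without mare 5. This bound is set by the lowest signal well above background on the day 0 arrays. The measured change was 2.86 ± 0.48 (adjusted p = 0.00104), and after normexp it was −0.05 (adjusted p = 0.896). The level of P19 was 2.69, 4.33, 3.90, 4.05 and 3.31 at day 0 and 6.64, 5.14, 4.89, 4.03 and 7.02 at day 3. Mares 1 and 5 were lowest at day 0 and highest at day 3, whereas mare 4 hardly moved, so that the days overlapped. The change of P19 was 1.89 ± 0.48 (adjusted p = 0.0126; lost without mare 1 or 5, p up to 0.0923). The third lipocalin on the list, the retinol carrier RBP4, had a change of −1.26 ± 0.48 and did not pass (adjusted p = 0.0787). The fall on this list was that of B2M, described below with antigen presentation.

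Follistatin, FST, a secreted protein that binds and neutralises activins, rose in every mare. Its level was 0.49, 0.90, 0.62, 0.44 and 0.71 at day 0 and 1.86, 2.19, 2.17, 2.68 and 1.96 at day 3. The days were far apart, and mare 4, whose median change over the named genes was the smallest, had the largest rise here. The change was 1.54 ± 0.19, a 2.91-fold rise (adjusted p = 0.000102), and the call held without each of the mares and with the slide as a block. Of the other tested members of the activin and TGF beta list, INHBA, the subunit of activin A, had a change of −0.46 ± 0.50 (adjusted p = 0.546), the inhibin subunit INHA 0.25 ± 0.27 (0.547) and TGFB1 0.40 ± 0.27 (0.311). Of the 5 members tested 1 rose and 0 fell, with a median change of 0.25, and of −0.42 after normexp.

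None of 6 tested genes of hormone response rose and 2 fell, with a median of −0.25, or 0.04 after quantile normalization. The retinoic acid receptor RARB was at −0.96, −1.50, −1.91, −2.11 and −0.92 at day 0 and −3.10, −2.28, −2.36, −2.01 and −2.69 at day 3. It was lower at day 3 in mares 1, 2, 3 and 5 and about level in mare 4, and the days overlapped. RARB fell by 1.01 ± 0.23 (adjusted p = 0.0069; lost without mare 1 or 5, p up to 0.0769). PPARGC1A, a coactivator of nuclear receptors that drives genes of mitochondrial respiration, was at −0.91, −0.87, −1.39, −2.07 and −1.04 at day 0 and at −3.53, −2.81, −2.66, −2.07 and −3.75 at day 3. Here the days barely missed each other, at −2.07 for both days in mare 4, and the other mares fell by 1.27 to 2.71. The fitted change was −1.71 ± 0.39 (adjusted p = 0.00709). The oestrogen receptor ESR1 had a change of −0.45 ± 0.26 in its brightest probe (adjusted p = 0.245), while its 5 other probes had changes of 0.67 to 0.72, none of them called, so that these data give no direction for ESR1. PGRMC1, a membrane protein linked to progesterone signalling, had a change of 0.47 ± 0.20 (adjusted p = 0.113), IGF1 of −0.04 ± 0.40 (0.952) and IGF2 of 0.17 ± 0.26 (0.673), and none of these passed.

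**Figure D2:**
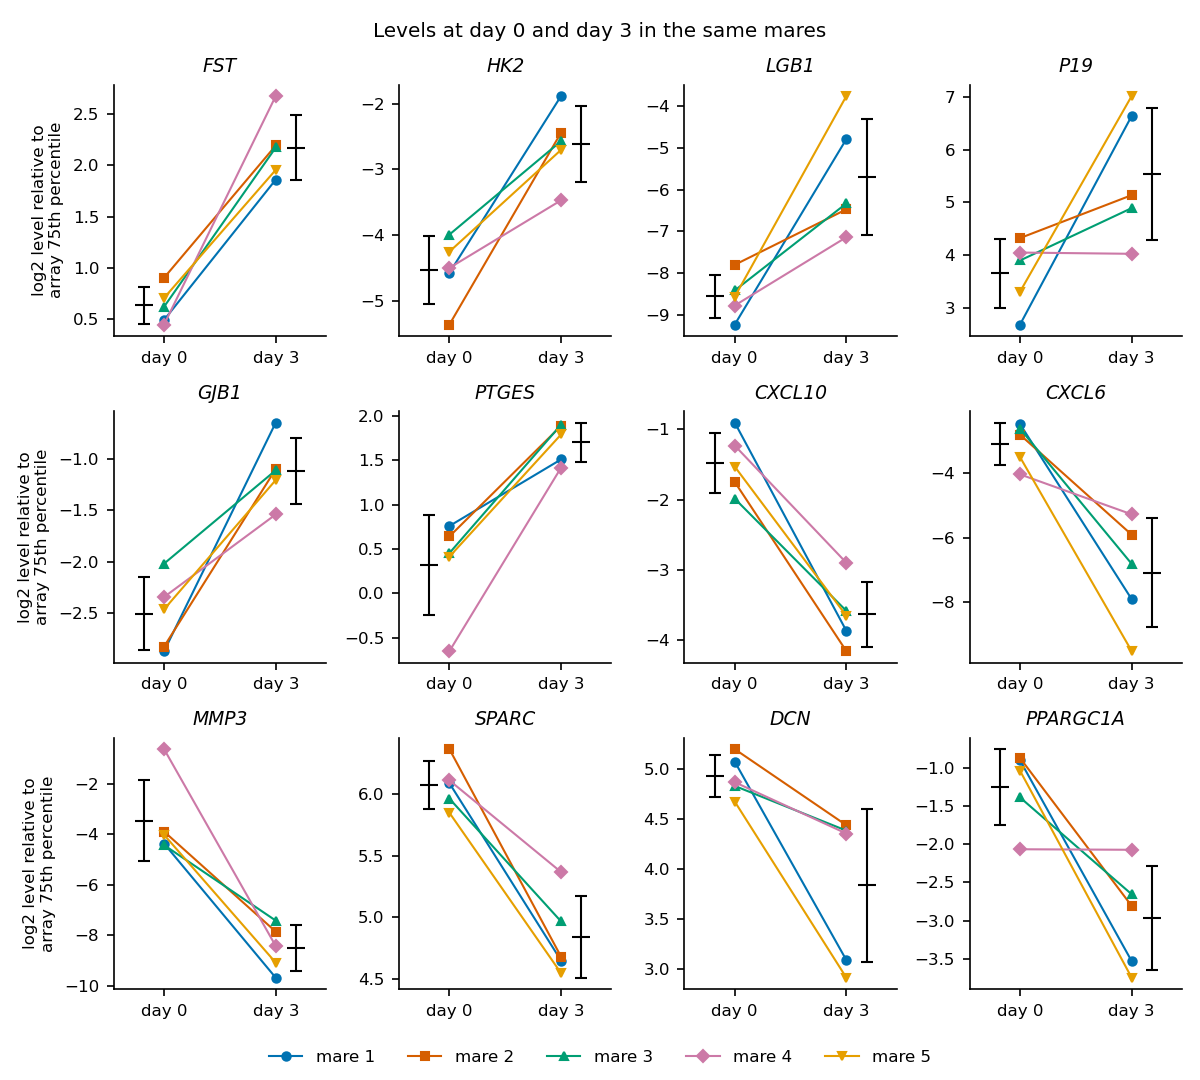
Log2 levels relative to the array's 75th percentile at day 0 and day 3 for 12 genes, with 1 line per mare and the mean ± SD of 5 mares in black beside each day; each panel has its own vertical axis. FST and HK2 rose and CXCL10 and SPARC fell in all 5 mares, while P19 and PPARGC1A were level in mare 4.

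Among the enzymes that make or change steroids and prostaglandins, the called changes were rises for steroids and mixed for prostaglandins. Of 15 tested genes of steroid and sterol metabolism 2 rose and 0 fell, with a median of −0.12 (0.13 after quantile normalization). HSD3B2, the enzyme that converts pregnenolone to progesterone, was at −6.26, −6.05, −5.59, −4.18 and −6.88 at day 0 and −3.00, −4.61, −4.95, −4.82 and −2.93 at day 3. It rose in 4 of 5 mares and was lower at day 3 in mare 4, and it was well above background on 3 of 5 arrays of day 0. Its change was 1.73 ± 0.48 (adjusted p = 0.0197; lost without mare 1, 2 or 5, p up to 0.165; after normexp 0.42, adjusted p = 0.304). POR, the reductase that passes electrons to the cytochromes P450, was at 0.20, 0.72, 0.52, 0.74 and 0.54 at day 0 and 2.10, 1.96, 1.48, 1.24 and 2.11 at day 3. All mares were higher at day 3 and the days did not overlap; the change was 1.23 ± 0.32 (adjusted p = 0.0145; lost without mare 1 or 5, p up to 0.092). CYP3A89, a cytochrome P450 whose close relatives may share its probe's signal, was likewise higher at day 3 in 5 of 5 mares with days that did not overlap, but did not pass (1.32 ± 0.46, adjusted p = 0.0553). The aromatase CYP19A1 had a change of −0.61 ± 0.48 (adjusted p = 0.394) and STAR, which brings cholesterol into mitochondria, of −0.07 ± 0.29 (0.883).

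For prostaglandins, an enzyme of synthesis rose and an enzyme of breakdown fell. PTGES, which makes prostaglandin E, was at 0.76, 0.64, 0.46, −0.65 and 0.41 at day 0 and 1.51, 1.89, 1.90, 1.42 and 1.79 at day 3. Every mare was higher at day 3, and the days did not overlap; mare 4 stood lowest at day 0. The change of PTGES was 1.38 ± 0.37, a 2.6-fold rise (adjusted p = 0.0173; lost without mare 2, 3 or 5, p up to 0.0726). HPGD, which inactivates prostaglandins, was at −3.23, −2.68, −3.34, −3.23 and −2.64 at day 0 and −5.45, −4.23, −4.17, −3.31 and −4.66 at day 3. It was lower in every mare, by only 0.07 in mare 4, where day 3 stayed within the range of day 0. HPGD fell by 1.34 ± 0.30 (adjusted p = 0.00626). The other 8 of 10 tested genes of this list did not pass: the inducible cyclooxygenase PTGS2 had a change of −0.73 ± 0.47 (adjusted p = 0.286), and the receptors PTGER2 and PTGFR, higher at day 3 in 5 of 5 mares each, of 0.83 ± 0.37 (0.124) and 0.77 ± 0.37 (0.156).

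Sugar use, iron handling and cell contacts held further named rises. HK2, the hexokinase that traps glucose in the cell, was at −4.58, −5.37, −3.99, −4.50 and −4.25 at day 0 and −1.88, −2.44, −2.57, −3.47 and −2.70 at day 3. The 5 values of day 3 all lay above those of day 0, with mare 4 lowest at day 3. HK2 rose 3.8-fold (1.93 ± 0.30, adjusted p = 0.000679; after normexp 1.08, adjusted p = 0.00347). COX10, which builds the haem of cytochrome oxidase, rose by 0.83 ± 0.22 (adjusted p = 0.0174; lost without mare 1, 2 or 3, p up to 0.0698; after normexp 0.12, adjusted p = 0.579), and LDHA, the muscle-type lactate dehydrogenase, was higher in 5 of 5 mares without passing (0.70 ± 0.24, adjusted p = 0.0542). Of 17 tested genes of sugar, lactate and energy metabolism 2 rose and 1, PPARGC1A, fell, and the median of −0.16 changed sign under quantile normalization (0.22) and with probes filtered on days 0 and 3 (0.07).

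Iron genes moved in both directions. TFRC, the transferrin receptor through which cells take up iron, was at −6.18, −7.94, −6.61, −6.13 and −5.87 at day 0 and −3.15, −5.48, −5.78, −4.62 and −4.12 at day 3. All 5 mares were higher at day 3 and the days did not overlap, mare 2 being lowest at day 0. TFRC was well above background on 4 arrays of day 0 and 5 of day 3. The change was 1.92 ± 0.52 (adjusted p = 0.0169; lost without mare 1, 2 or 5, p up to 0.0797), and it was 0.17 (adjusted p = 0.604) after normexp and 1.07 (adjusted p = 0.231) with the signal level as a covariate. SLC11A1, which pumps iron out of phagosomes, rose by 0.82 ± 0.19 (adjusted p = 0.00639) and also had days that did not overlap, at −1.90 to −1.54 at day 0 and −1.26 to −0.74 at day 3. FTL, the light chain of the iron store ferritin, was at 4.42, 4.46, 4.16, 3.50 and 4.23 at day 0 and 3.40, 3.17, 2.94, 3.52 and 3.37 at day 3. It fell in mares 1, 2, 3 and 5 and not in mare 4, which was lowest at day 0 (−0.87 ± 0.18, adjusted p = 0.00324). The superoxide dismutase SOD1 rose by 0.56 ± 0.18 (adjusted p = 0.0399; lost without mare 1, 2, 3 or 5, p up to 0.244). Its mitochondrial relative SOD2 (0.66 ± 0.31, adjusted p = 0.151), thioredoxin reductase TXNRD1 (1.0 ± 0.38, 0.0765) and the plasma glutathione peroxidase GPX3 (0.90 ± 0.37, 0.0959) were each higher in 5 of 5 mares and did not pass. In this list 3 of 10 tested genes rose and 1 fell, with a median change of 0.61.

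Of 10 tested genes of junctions and adhesion 3 rose and 1 fell, with a median of 0.20 (−0.13 after normexp). GJB1, the gap junction protein connexin 32, was at −2.87, −2.82, −2.02, −2.34 and −2.46 at day 0 and −0.65, −1.10, −1.11, −1.54 and −1.21 at day 3. Each mare rose, and the lowest value of day 3 lay above the highest of day 0. The change of GJB1 was 1.38 ± 0.27, 2.6-fold (adjusted p = 0.00271). ITGA2B, the platelet integrin, rose by 1.31 ± 0.23 (adjusted p = 0.00128) and VCAM1, to which white blood cells adhere, by 0.67 ± 0.18 (0.0169; lost without mare 1, 2 or 5, p up to 0.102). SELP, the P-selectin on which white blood cells roll along vessel walls, fell by 1.24 ± 0.30 (adjusted p = 0.01; lost without mare 2 or 5, p up to 0.0615). SCN4A, a sodium channel of muscle, fell by 0.72 ± 0.23 (adjusted p = 0.0392; lost without mare 2, 3, 4 or 5, p up to 0.151). The calcium-binding protein S100G was higher in 5 of 5 mares and did not pass (1.31 ± 0.46, adjusted p = 0.0573).

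The chemokines that changed were lower at day 3. Of 23 tested chemokines, cytokines and their receptors 0 rose and 5 fell (CXCL6, CXCL8, CXCL9, CXCL10 and CCL3), where 12.1% of all named genes were lower. Their median change was −0.55, against −0.20 over the named genes. CXCL6, which draws neutrophils, was at −2.50, −2.83, −2.64, −4.05 and −3.52 at day 0 and −7.90, −5.91, −6.81, −5.28 and −9.50 at day 3. Day 3 lay below day 0 throughout; mare 5 fell most and mare 4 least. The change was −3.98 ± 0.82 (adjusted p = 0.00358; after normexp −2.04, adjusted p = 0.00129), with 5 arrays well above background at day 0 and 3 at day 3. CXCL8, which also draws neutrophils, was at −6.26, −6.53, −6.62, −5.84 and −5.13 at day 0 and −9.58, −8.14, −8.77, −7.96 and −9.06 at day 3. It was well above background on 4 arrays of day 0 and on 0 of day 3, so that its day 3 level is only bounded from above. CXCL8 was at least 2.43-fold lower at day 3, with a measured change of −2.63 ± 0.67 (adjusted p = 0.0122; lost without mare 1 or 5, p up to 0.0773; after normexp −1.06, adjusted p = 0.0154).

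CXCL10 and CXCL9, both induced by interferon and ligands of the same chemokine receptor of T cells, were detected on all 10 arrays. CXCL10 was at −0.90, −1.75, −1.99, −1.23 and −1.53 at day 0 and −3.87, −4.16, −3.58, −2.90 and −3.65 at day 3. The days were clear of each other, mare 4 again being highest at day 3. It fell 4.44-fold (−2.15 ± 0.31, adjusted p = 0.000395), and each of its 4 other probes was called with a change of −2.27 to −2.20. CXCL9 fell by 1.51 ± 0.37 (adjusted p = 0.00972; lost without mare 1, 2 or 5, p up to 0.0624) and CCL3, measured in 4 pairs because 1 spot of day 0 was marked as an outlier, had a fitted change of −0.86 ± 0.27 (adjusted p = 0.0352). The monocyte attractant CCL2 (−0.82 ± 0.39, adjusted p = 0.151), the T cell attractant CCL5 (−0.53 ± 0.22, 0.0951) and IL18 (−0.82 ± 0.30, 0.0646) were each lower in 4 of 5 mares and did not pass.

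Genes of the interferon response and antigen presentation included CXCL9 and CXCL10 and had 4 of 15 tested members that fell and 0 that rose, with a median of −0.46. The only positive change among the 15 was large, at 1.70, and did not pass. B2M, the light chain of class I histocompatibility molecules, was at 5.66, 5.83, 5.38, 4.90 and 5.49 at day 0 and 4.36, 4.58, 4.66, 4.73 and 4.24 at day 3. The days did not overlap, though mare 4 moved little, and B2M fell by 0.94 ± 0.18 (adjusted p = 0.00222). TLR3, a sensor of double-stranded RNA, fell by 0.67 ± 0.21 (adjusted p = 0.0352; lost without mare 1, 2, 3 or 5, p up to 0.171). The antiviral genes OAS1 (−0.80 ± 0.29, adjusted p = 0.063), IFI27 (−0.57 ± 0.31, 0.215) and MX1 (−0.27 ± 0.31, 0.562) did not pass. Of 11 tested genes of antimicrobial defence 2 fell, CXCL6 and CXCL8, and the acute-phase protein SAA had an interval too wide to place it, from −3.20 to 1.99 (95% confidence). CASP1, the protease that releases interleukin 1, fell by 0.81 ± 0.25 (adjusted p = 0.03; lost without mare 1, 2, 3 or 5, p up to 0.125).

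Markers of white blood cells moved with the chemokines in part. LILRA, a leukocyte receptor on the neutrophil list, was at −4.41, −5.26, −4.08, −6.00 and −4.36 at day 0 and −7.59, −6.54, −6.82, −7.34 and −8.57 at day 3. The days did not overlap, but 1 of 5 arrays of day 3 was well above background. It fell by 2.55 ± 0.66 (adjusted p = 0.0133; lost without mare 3 or 5, p up to 0.0909; after normexp −1.24, adjusted p = 0.00533), and it was the single tested gene of 12 on that list. Of 3 tested macrophage genes CD68 fell (−1.03 ± 0.27, adjusted p = 0.0158; lost without mare 1, 2, 3 or 5, p up to 0.0854) and CD14 (−0.29 ± 0.29, 0.519) and ITGAX (−0.40 ± 0.40, 0.513) did not pass. Their summed level relative to the 75th percentile was 1.12 to 2.18 at day 0 and 1.13 to 1.52 at day 3. Such a sum, here and below, is weighted to its brightest probe and does not measure the number of cells. Among 4 tested T and NK cell genes GNLY, the granule protein granulysin, fell (−0.97 ± 0.25, adjusted p = 0.0125; lost without mare 3 or 5, p up to 0.116), while GZMB had a change of −0.50 ± 0.24 (0.162) and CD2 of 0.01 ± 0.25 (0.986). The summed level of these 4 was 2.95 to 11.7 at day 0 and 2.95 to 5.70 at day 3. No gene of the B cell list was tested. The part of white blood cells in the fall of the chemokines was not tested.

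The matrix genes that changed were lower at day 3 too. Of 12 tested genes of the extracellular matrix 0 rose and 5 fell, and the median was −0.89, 1 of the 12 having a positive change. SPARC, a protein that binds collagen and calcium, was at 6.09, 6.37, 5.97, 6.11 and 5.85 at day 0 and 4.65, 4.68, 4.96, 5.37 and 4.54 at day 3. The days did not overlap, with the highest value of day 3 at 5.37 and the lowest of day 0 at 5.85. SPARC fell 2.36-fold (−1.24 ± 0.15, adjusted p = 0.000142), and all 7 of its other probes were lower, by 0.48 to 1.24, of which 2 were called. The small proteoglycan decorin, DCN, which coats collagen fibrils, was at 5.07, 5.20, 4.83, 4.87 and 4.67 at day 0 and 3.09, 4.44, 4.38, 4.35 and 2.92 at day 3. No mare of day 3 reached the lowest value of day 0, and mares 1 and 5 fell by far the most. The change of DCN was −1.09 ± 0.23 (adjusted p = 0.00376). Lumican, LUM, a relative of decorin, was at 2.29, 3.01, 2.54, 2.52 and 2.10 at day 0 and 0.34, 1.77, 1.99, 1.62 and 0.12 at day 3. Again the days did not overlap and mares 1 and 5 were lowest at day 3 (−1.32 ± 0.30, adjusted p = 0.00692), and its 5 other probes were all called in the same direction. Biglycan, BGN, fell by 0.85 ± 0.23 (adjusted p = 0.0165; lost without mare 1, 2 or 5, p up to 0.0985) and the collagen chain COL5A2 by 0.73 ± 0.18 (adjusted p = 0.0115).

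DCN and LUM also were the 2 tested genes of the stromal fibroblast list. Their summed level, weighted to the brighter DCN probe, was 29.8 to 44.7 at day 0 and 8.63 to 25.1 at day 3. The epithelial marker ESRP1 had a change of −0.19 ± 0.16 (adjusted p = 0.454), the endothelial PECAM1 of −0.11 ± 0.19 (0.722) and TAGLN of smooth muscle of −0.62 ± 0.34 (0.217), none of them called. DYDC1, the tested marker of ciliated cells, fell by 1.02 ± 0.35 at the edge of the threshold (adjusted p = 0.0499; lost without mare 1, 2, 3 or 5, p up to 0.241) and was well above background on 3 arrays of each day. Whether the share of stroma in the biopsies differed was not tested.

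Both called proteases of the matrix fell. MMP3, stromelysin 1, was at −4.37, −3.89, −4.43, −0.62 and −4.02 at day 0 and −9.69, −7.86, −7.42, −8.43 and −9.09 at day 3. Mare 4 stood far above the others at day 0, and on day 3 MMP3 was well above background on 0 of 5 arrays. It was at least 14.8-fold lower at day 3, or at least 8.43-fold without mare 4, with a measured change of −5.03 ± 0.67 (adjusted p = 0.000213; after normexp −2.16, adjusted p = 0.000972). With the signal level as a covariate the change was −4.41 (adjusted p = 0.00467). The gelatinase MMP9, which neutrophils and macrophages also carry, was at −3.37, −2.21, −2.59, −4.16 and −1.81 at day 0 and −5.90, −3.55, −3.96, −5.09 and −3.21 at day 3. All mares fell, but the days overlapped, since mare 5 at day 3 lay above mares 1 and 4 at day 0 (−1.51 ± 0.45, adjusted p = 0.0281; lost without mare 1, 2, 3 or 5, p up to 0.125). The inhibitors TIMP1 (−0.65 ± 0.31, adjusted p = 0.154) and TIMP3 (0.05 ± 0.26, 0.914) did not pass. Of 10 tested proteases and inhibitors 2 fell and 0 rose, with a median of −0.50.

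**Figure D3:**
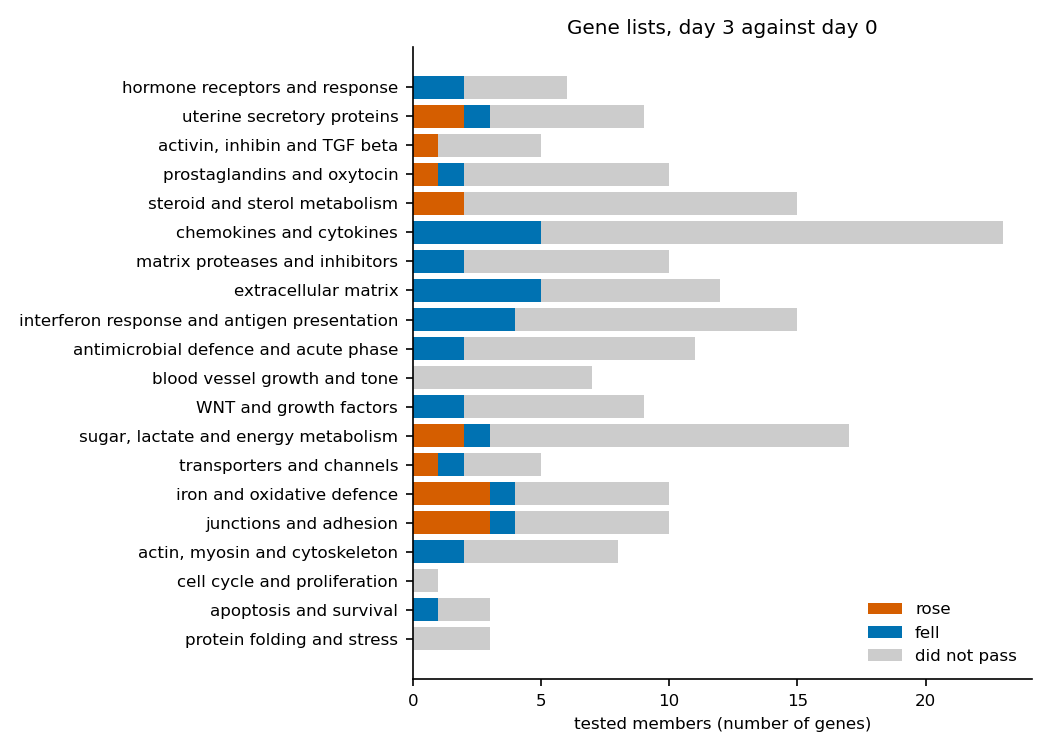
For each of 20 gene lists, the number of tested members that rose (orange), fell (blue) or did not pass (grey) at an adjusted p under 0.05. Calls in chemokines, matrix, proteases and interferon response were all falls, and those in steroid metabolism were both rises. The counts are small, with 2 of 10 proteases lower and 2 of 15 genes of steroid metabolism higher. Of all named genes tested, 12.1% were lower and 6.23% higher, and no test of a list against these shares is given. Lists share members: CXCL9 and CXCL10 count under both chemokines and interferon response.

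Further falls were found among genes of signalling and structure. In the list of WNT and growth factors 2 of 9 tested members fell and 0 rose, with a median of −0.60. FRZB, a secreted antagonist of WNT, was at −1.04, −0.38, −1.01, −1.48 and −1.12 at day 0 and −2.04, −2.11, −2.02, −1.78 and −2.37 at day 3. The days did not overlap, and mare 4, lowest at day 0, moved least (−1.06 ± 0.22, adjusted p = 0.00366). The hepatocyte growth factor receptor MET fell by 1.06 ± 0.28 (adjusted p = 0.0144; lost without mare 2, 3 or 5, p up to 0.0995) and was higher at day 3 in mare 4; its 2 other probes had changes of −0.40 and −0.37 and were not called. CDH13, a cadherin without a cytoplasmic tail, fell by 1.36 ± 0.29 (adjusted p = 0.00391), with days that did not overlap.

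Of 8 tested genes of actin, myosin and the cytoskeleton 2 fell. MYH7, a myosin heavy chain of slow muscle and heart, was at 2.20, 1.73, 1.39, 1.30 and 2.93 at day 0 and −0.49, 0.24, 0.38, 1.85 and −0.20 at day 3. It fell in 4 of 5 mares and was higher in mare 4, so that the days overlapped (−1.56 ± 0.39, adjusted p = 0.0119; lost without mare 1, 2 or 5, p up to 0.0931). RND3, a small GTPase that loosens actin fibres, fell by 1.08 ± 0.28 (adjusted p = 0.0125; lost without mare 1 or 2, p up to 0.0741).

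CLEC3A and CHGA, which are on no list, fell as well. CLEC3A, a C-type lectin known from cartilage, was at −3.52, −4.21, −4.65, −7.12 and −5.03 at day 0 and −9.59, −8.69, −9.29, −9.63 and −9.27 at day 3. It was well above background on 4 arrays of day 0, all but mare 4, and on 0 of day 3. CLEC3A was at least 5.47-fold lower, with a measured change of −4.39 ± 0.59 (adjusted p = 0.000213; after normexp −1.59, adjusted p = 0.000668), and the call held without each of the mares. CHGA, chromogranin A, a protein of secretory granules, was at −5.89, −3.46, −3.92, −5.33 and −4.89 at day 0 and −8.29, −7.64, −7.51, −7.30 and −7.87 at day 3. All 5 mares were lower at day 3 without overlap, and 1 array of day 3 was well above background. The change of CHGA was −3.02 ± 0.86 (adjusted p = 0.0216; lost without mare 2 or 3, p up to 0.101; after normexp −1.35, adjusted p = 0.132), and its 4 other probes were called in the same direction. C14H5orf46 fell by 1.46 ± 0.28 (adjusted p = 0.00217), with days that did not overlap.

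The remaining named rises are given gene by gene. UBE2S, the enzyme that extends ubiquitin chains for the anaphase-promoting complex, was at 2.02, 1.85, 1.86, 2.84 and 2.45 at day 0 and 4.04, 2.91, 2.51, 3.04 and 3.53 at day 3. Each mare rose, mare 1 most and mare 4 least, and the days overlapped (1.0 ± 0.26, adjusted p = 0.0125; lost without mare 1 or 5, p up to 0.0974). ABCE1, which splits ribosomes for reuse, rose by 0.84 ± 0.15 (adjusted p = 0.00171; after normexp −0.01, adjusted p = 0.976). ALDH18A1, which makes the precursor of proline, rose by 0.82 ± 0.17 (adjusted p = 0.00305) with days that did not overlap. RNASEH2C, a subunit of the nuclease that removes RNA from DNA, rose by 1.10 ± 0.29 (adjusted p = 0.0151; lost without mare 1 or 5, p up to 0.0801), JPT2 by 1.04 ± 0.24 (0.00705; lost without mare 1 or 2, p up to 0.0549) and the hormone relaxin, RLN, by 1.02 ± 0.33 (0.0419; lost without mare 1, 2, 3, 4 or 5, p up to 0.169; after normexp 0.08, adjusted p = 0.822).

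**Figure D4:**
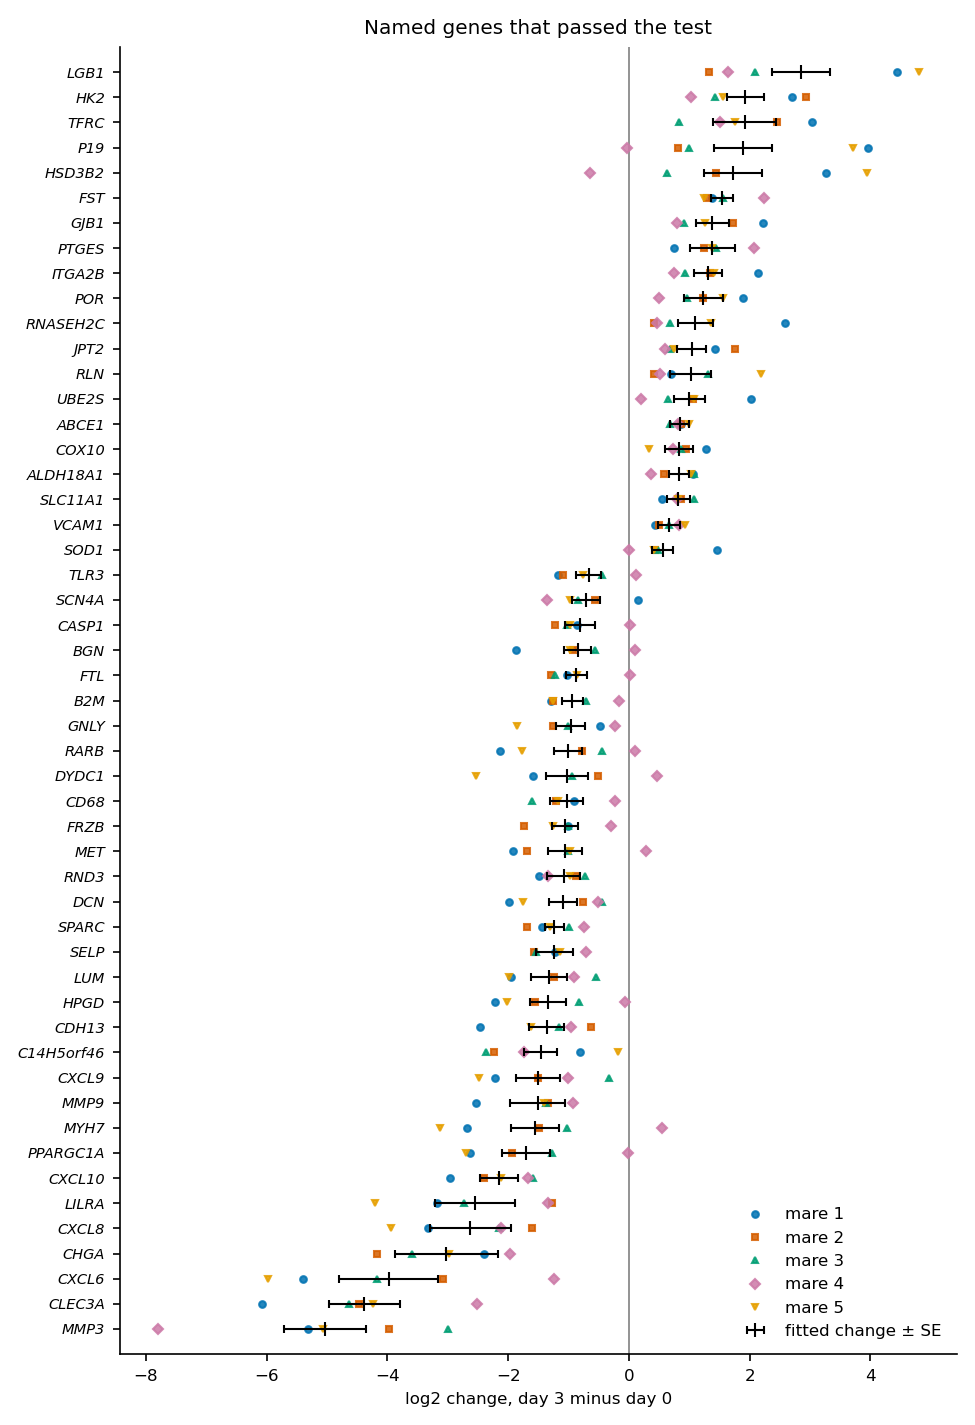
Log2 change from day 0 to day 3 of 51 of the 52 named genes that passed the test, with 1 coloured point per mare and the fitted change ± SE in black. Mare 4 (pink diamonds) had the opposite sign in 11 of these 51; the remaining gene is not shown, and MMP3 had the lowest and LGB1 the highest fitted change.

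Over the 5 days of the cycle, the day 3 mean was the highest or lowest for some genes and not for others. The order of means is given here as a description, with no test between day 3 and the later days. The genes were chosen by the same day 0 and day 3 values. A called rise could therefore not be highest at day 0, nor a called fall highest at day 3 or lowest at day 0. This choice raises the counts of highest means at day 3 for rises and at day 0 for falls. It also raises the count of lowest means at day 3 for falls, and no share over all genes is given. Of the 32 named genes that rose, 17 had their highest mean of the 5 days at day 3 and 11 at day 8. Those with their highest mean at day 8 included FST, with a mean ± SD of 0.63 ± 0.18 at day 0, 2.17 ± 0.32 at day 3 and 3.25 ± 0.14 at day 8, and 0.09 ± 0.34 at day 16 (n = 5 each). LGB1 was at −5.70 ± 1.38 at day 3 and −3.78 ± 0.29 at day 8, and P19 at 5.54 ± 1.25 and 7.74 ± 0.17. For both lipocalins the mares were spread widely at day 3 and lay close together at day 8.

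Genes whose highest mean was that of day 3 included UBE2S, at 3.21 ± 0.59 at day 3, 2.31 ± 0.22 at day 8 and 1.69 ± 0.30 at day 12. RNASEH2C also had its highest mean at day 3, with a wide spread there (−1.54 ± 1.02, against −2.63 ± 0.33 at day 0 and −3.19 ± 0.23 at day 8). Of the 62 named genes that fell, 47 had their highest mean at day 0 and 12 at day 16, and 28 had their lowest at day 3. CXCL10 was at −1.48 ± 0.43 at day 0 and at −3.63 ± 0.47, −3.60 ± 0.45 and −3.46 ± 0.62 at days 3, 8 and 12, and MMP3, near background on those days, at −8.50 ± 0.91, −9.30 ± 0.30 and −9.06 ± 1.17. For CXCL10 the difference between day 3 and days 8 and 12 was within 1 SD, while the background sets the level of MMP3 on these days. CHGA was different, at −4.70 ± 1.0 at day 0, −7.72 ± 0.38 at day 3 and 2.28 ± 1.72 at day 16, so that its highest mean was not that of ovulation.

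**Figure D5:**
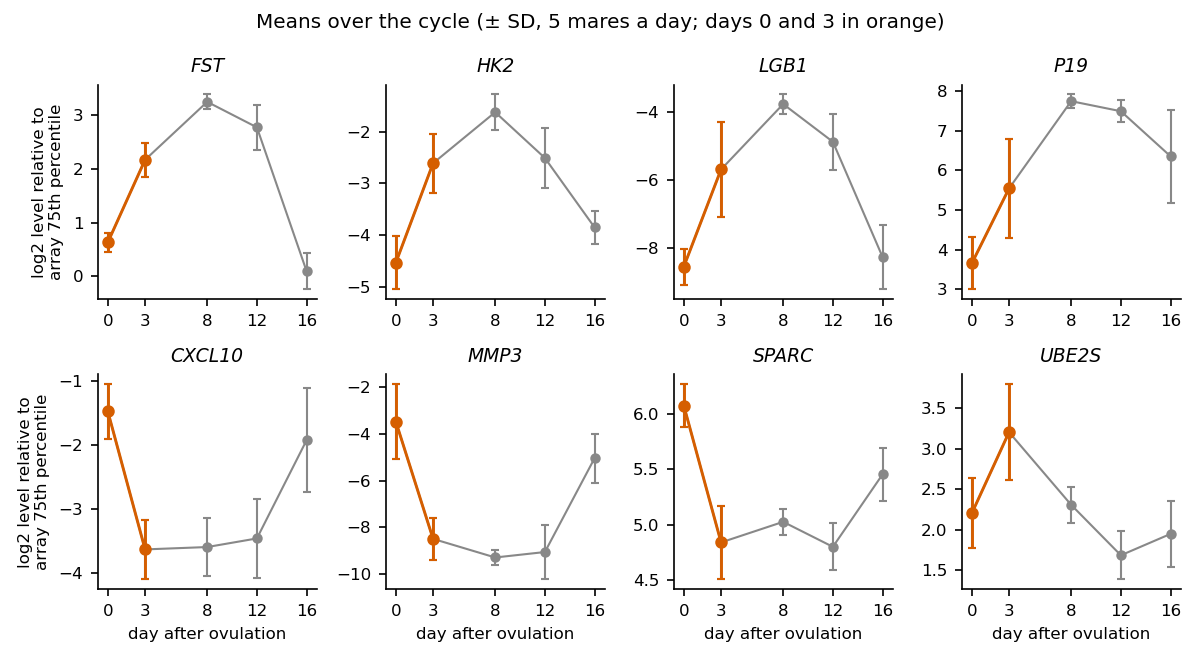
Mean log2 levels (± SD, 5 mares a day) relative to the array's 75th percentile at days 0, 3, 8, 12 and 16 for 8 genes, with days 0 and 3 in orange; each panel has its own vertical axis. FST, HK2, LGB1 and P19 had their highest mean at day 8, UBE2S at day 3, CXCL10 differed by less than 1 SD between days 3, 8 and 12, and MMP3 was near background on those days.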

How the data were processed

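Per the labels' protocols, Trizol was used to isolate RNA, and Cy3 to label it. The authors deposited spot intensities from which Agilent Feature Extraction 10.7.3.1, named in the headers and in the submitters' processing notes, had subtracted background array by array; no scaling across arrays is recorded. Their value table held the same processed signal for 25 of 25 arrays.

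From these intensities log2 values were taken and each array's 75th percentile was subtracted, which hides any change in total RNA. Outlier spots were left out and spots of 1 probe averaged. Probes well above background on at least 4 of 5 arrays of some day were tested, 35770 of 43603. Limma 3.58.1 in R 4.3.3 fitted day and mare over all 25 arrays with two-sided moderated tests. The labels state no test. Arrays of 1 mare deviated together from their day means (median r 0.25, or 0.12 on different slides), those of different mares did not (−0.05). For days 0 and 3 this r was −0.12 in mare 4 and 0.09 to 0.40 in the others. The labels give the same mare, which is the basis of the pairing.

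Symbols came from RefSeq's table for the assembly TB-T2T, matched by accession, and cover 1307 probes and 620 genes; probes known only by an Ensembl transcript (32565) or another identifier stayed unnamed. No sequence or position is given. Each gene takes its brightest probe. Named are the 15 largest rises and 15 largest falls with 1 direction in all 5 mares, up to 4 called members of each list and all tested genes of hormone response; members that did not pass may be given with values. Some results are not reported here. CCL3, COL5A2 and the genes under other observations were chosen after their values were seen. The members, lists and tests were chosen with earlier results of these data known. A bound on a fold uses the lowest signal well above background on the same array. Close paralogues may share signal. The programs were tested on simulated data. Python 3.11.15, pandas 2.3.3, numpy 2.4.6, scipy 1.17.1 and matplotlib 3.10.9 were used. The 19 alternatives are given with their effects in the closing section, 2 of them (the scan day as a block, and 1 scan day alone) chosen after seeing the data.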

Additional observations from a re-analysis of the deposited data

Results flagged for a closer look

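In 112 sets of 5 values (56 named genes at both days) 5 held a value far from the other 4, where chance gives about 1 in 20. MMP3 at day 0 stood at −0.62 in mare 4, the highest of its day, with the nearest at −3.89. PTGES at day 0 was lowest in mare 4, at −0.65, with the nearest at 0.41. GNLY at day 3 was highest in mare 2, at 0.0207, with the nearest at −0.57. PGRMC1 at day 3 was highest in mare 5, at 5.78, with the nearest at 5.28. SLC11A1 at day 3 was lowest in mare 1, at −1.26, with the nearest at −0.83. Both values of day 0 belonged to mare 4.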

How the results depend on the processing

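Of 19 alternatives, those that moved the number of called probes (6086) or named genes (94) by over 1.5 times were normexp background correction (10577 and 167), only the 10 arrays of both days (328 and 6), the slide (732 and 15) or the signal level (2495 and 55) beside the replicate block, a 2-fold minimum (2473 and 49), 1 probe per target (3212 probes) and, added after seeing the data, the scan day beside the replicate block (3224 probes). Without 1 mare the counts were 2553 to 8039 probes and 39 to 138 named genes; without mares 1, 2, 3, 4 and 5 they were 2715, 2864, 3425, 8039 and 2553 probes. Scan day 3 alone held 3 arrays a day, day 0 of mares 1, 4 and 5 and day 3 of mares 3, 4 and 5. Limma on those arrays without the replicate block, and so unpaired, called 0 probes and 0 named genes. At an unadjusted p under 0.05 there were 4379 and 83. Without the replicate block 4533 probes and 77 named genes were called, and CD68, DYDC1, RLN, SCN4A and TLR3 lost their calls; BGN, DYDC1 and SCN4A lost theirs after quantile normalization, which moved the median of all probes from −0.11 to 0.01 and the share of higher calls from 51.3% to 63.5%; after normexp they were −0.29 and 24.6%, and without a filter on dim probes the share was 42.4%. Normexp ended the calls of CHGA, COX10, HSD3B2, RLN and TFRC, and ABCE1 (−0.0072) and LGB1 (−0.052) changed sign. Its offset weighs most on dim probes by construction, and its effect was not alike for rises and falls. Its input signal also differed from that of the main fit, and the part of each was not tested. Of 17 list medians, 12 of 306 values under the alternatives had the other sign; beside those in the report, hormone response (0.04) and steroid metabolism (0.01) turned with the signal level, secretory proteins (0.12) and prostaglandins (−0.01) with the slide, sugar metabolism (0.07) with probes above background on all 10 arrays, and steroid metabolism (0.04) without mare 5. Of 52 named genes 22 kept their call without each mare. Dim probes limit the comparison: 51 called falls were at background on all day 3 arrays and 28 called rises on all day 0 arrays.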

Other observations

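Among the 42 called genes that the naming rule left out were several that fell without overlap between the days. ANGPTL2, a secreted relative of the angiopoietins, ranged from 1.96 to 2.67 at day 0 and from 0.68 to 1.55 at day 3, a change of −1.14 ± 0.16 (adjusted p = 0.000376). The growth factor PDGFC changed by −1.03 ± 0.16 (adjusted p = 0.000506) and ANXA1, annexin A1, an inhibitor of inflammation induced by glucocorticoids, by −1.06 ± 0.18 (0.00117). All of these were lower at day 3 in 5 of 5 mares. TMSB10, a thymosin that binds actin, was lower in 5 of 5 mares as well, but its days overlapped (−1.10 ± 0.21, adjusted p = 0.0021).

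Among the called rises outside the rule, BSG, basigin, the partner of lactate transporters and an inducer of matrix proteases, ranged from 0.50 to 0.86 at day 0 and from 1.19 to 1.90 at day 3 (0.81 ± 0.15, adjusted p = 0.0018). The calcium pump of the endoplasmic reticulum ATP2A2 changed by 0.63 ± 0.17 (adjusted p = 0.018) and ATP6V0C, a subunit of the proton pump of acid vesicles, by 0.68 ± 0.20 (0.0265). ARF4 (0.62 ± 0.19, 0.0278) and YIF1A (0.74 ± 0.19, 0.012), both of traffic between the endoplasmic reticulum and the Golgi, were higher at day 3 in 5 of 5 mares, as were ATP2A2, ATP6V0C and BSG. DDIT4, an inhibitor of mTOR signalling, changed by 0.77 ± 0.21 (adjusted p = 0.0175). PPAT, which starts purine synthesis, had the largest rise of these (1.38 ± 0.38, adjusted p = 0.0182) but was higher at day 3 in 4 of 5 mares. Of these 7 rises, BSG and ATP2A2 had days that did not overlap. All genes of this part were chosen after their values were seen, and no group of them was tested. For these genes no refit without a mare is given.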
